A study of Mus musculus with 34 samples.

Results

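Bivalent promoters carry a mark of activation, trimethylated lysine 4 of histone H3 (H3K4me3), and a mark of repression, trimethylated lysine 27 (H3K27me3), at the same time. Polycomb repressive complex 2 writes H3K27me3 and keeps developmental genes silent, whereas Trithorax-type methyltransferases write H3K4me3 at CpG-rich start sites. The combination is best known from embryonic stem cells, where it marks regulators of lineages not yet chosen, and it is also found in differentiated cells. CTCF is a zinc finger protein that binds DNA at insulators and promoters, and SMC1 is a subunit of cohesin, the ring complex that is held at many CTCF sites.

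Bivalent promoters were examined here in unstimulated bone marrow-derived dendritic cells (BMDCs) and followed after loss of CTCF and after LPS. They were chosen by the deposited peak lists of the WT condition, as autosomal protein-coding promoters that overlapped both an H3K4me3 peak and an H3K27me3 peak at least 1 kb wide. The promoter window spanned 1 kb up- and downstream of the start site of the longest transcript. The rule was met by 1455 of 20807 promoters (6.99%). Of the others, 9857 had H3K4me3 without H3K27me3 (H3K4me3-only promoters), 1487 had H3K27me3 of at least 1 kb without H3K4me3 (H3K27me3-only promoters), 413 had H3K4me3 with a narrower H3K27me3 peak, 812 had a narrower H3K27me3 peak alone, and 6783 had neither mark. Both marks came from bulk cells, so that promoters with both marks on 1 chromosome copy and mixtures of cells with 1 mark each cannot be told apart.

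The cells came from bone marrow of C57BL/6 mice, 8 weeks old per the labels, cultured for 6 days with GM-CSF. CTCF-WT cells carried CreER alone and CTCF-KO cells carried CreER with CTCF fl/fl alleles. CreER was expressed from the Rosa26 locus, in all cells and not in dendritic cells alone, and 4-OH tamoxifen was added on the first day to both genotypes. CD11c+ cells were then selected, and the lists WTLPS and KOLPS came from cells treated for 3 h with 100 ng/ml of LPS, which bacteria carry and TLR4 senses, whereas WT and KO were unstimulated. Peak lists existed for CTCF, SMC1, the NF-κB subunit p65, H3K4me3, H3K27me3, H3K27ac and H3K4me1 in all 4 conditions and for STAT5 in WT and KO, the last after renewed GM-CSF for 15 min. Of the 34 samples, 30 had a list and 4 were inputs.

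Each antibody and condition had 1 list, so that no difference between conditions could be tested against replicates. Shares are given with 95% Wilson intervals, which cover counting error only, and beside the share of all promoters. Fold enrichment is the fragment pileup of a peak over its local background. It depends on each library, so that folds of 1 gene in several conditions stand side by side without a comparison of their size. Unless given with a peak width, the fold of a gene is that of its strongest peak in the window, which need not be the widest. The H3K27me3 lists held from 26960 peaks (KOLPS) to 96475 peaks (WT), their library coverage ranged from 0.830 to 1.12 background fragments per base, and their lowest −log10 p ranged from 2.72 to 3.47. This coverage was recovered from only 13.1% to 17.3% of the peaks tried in each H3K27me3 list and is uncertain. The numbers of CTCF peaks were 60537 (WT), 54020 (WTLPS), 20151 (KO) and 11576 (KOLPS), with a coverage between 2.82 and 3.74. The lists give binding and not the Ctcf transcript, so that the deletion was checked only through these peak numbers. Start sites of 74 members lay within 2 kb of another member, so that such pairs share peaks.

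As a check of the labelled cell type, 14 of 15 dendritic and myeloid marker promoters, such as those of Itgax (CD11c), Itgam, Spi1, Csf1r, Irf8 and Zbtb46, had H3K4me3 without H3K27me3 in WT. The exception, Flt3, the receptor for the growth factor FLT3L, was bivalent. Its H3K4me3 fold was 8.07, 6.96, 9.54 and 8.46 in WT, WTLPS, KO and KOLPS, and its H3K27me3 fold was 3.59, 3.57 and 3.61 in WT, WTLPS and KO, with no H3K27me3 peak in KOLPS. Markers of other lineages were partly bivalent, namely Tcf7 of 7 T cell markers, Ebf1 of 4 B cell markers, Epor of 3 erythroid markers, S100a8 of 5 neutrophil markers and Pdgfra and Col1a1 of 3 fibroblast markers. None of the 3 hepatocyte and 4 neuron markers was bivalent. Cd4, Cd8a, Cd79a, Ly6g and Alb, which define other cell types, had neither mark in WT. Ebf1, which encodes a master regulator of B cells, and Epor, the erythropoietin receptor, had both marks in all 4 conditions. H3K4me3 also marked the erythroid promoter Klf1 and, in WT, WTLPS and KO, the neutrophil promoter Cebpe, and the part of other cells in the cultures was not tested.

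The sequence of bivalent promoters is illustrated by 200 bases immediately upstream of 4 start sites (GRCm38, 5′ to 3′ in the direction of the gene, each CG in capitals). Calu, which encodes a calcium-binding protein of the secretory pathway (chromosome 6, gene 29348069 to 29377110, plus strand, start site 29348106, shown 29347906 to 29348105), and Epn2, an adaptor of endocytosis (chromosome 11, gene 61517249 to 61579687, minus strand, start site 61579669, shown 61579670 to 61579869), had the widest H3K27me3 peaks. Zic5, a neural zinc finger factor (chromosome 14, gene 122456795 to 122465677, minus strand, shown 122465678 to 122465877), and Osr2, a zinc finger factor of palate and tooth formation (chromosome 15, gene 35296098 to 35303305, plus strand, shown 35295898 to 35296097), had wide H3K27me3 peaks that covered the start site itself, and were added after the values were seen.
Calu: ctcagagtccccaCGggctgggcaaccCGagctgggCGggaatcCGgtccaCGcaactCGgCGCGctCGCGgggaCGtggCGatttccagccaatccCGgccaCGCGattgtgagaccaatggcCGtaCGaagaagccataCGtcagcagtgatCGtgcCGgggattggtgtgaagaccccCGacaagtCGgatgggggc
Epn2: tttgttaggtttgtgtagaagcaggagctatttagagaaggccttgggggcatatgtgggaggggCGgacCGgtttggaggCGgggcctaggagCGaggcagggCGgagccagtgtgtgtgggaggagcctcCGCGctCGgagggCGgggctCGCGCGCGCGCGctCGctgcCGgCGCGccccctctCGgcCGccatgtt
Zic5: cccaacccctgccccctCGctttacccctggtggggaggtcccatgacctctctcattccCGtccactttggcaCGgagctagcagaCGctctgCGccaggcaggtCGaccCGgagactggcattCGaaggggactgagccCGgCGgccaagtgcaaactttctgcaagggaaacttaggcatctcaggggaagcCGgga
Osr2: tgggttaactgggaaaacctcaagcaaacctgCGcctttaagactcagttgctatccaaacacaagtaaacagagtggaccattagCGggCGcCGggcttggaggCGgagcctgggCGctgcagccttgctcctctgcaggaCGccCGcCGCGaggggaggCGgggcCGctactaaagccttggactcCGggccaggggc
These stretches held 22, 21, 11 and 13 CG dinucleotides in Calu, Epn2, Zic5 and Osr2.

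Within 500 bp of the start site, the median GC content was 62.2% at bivalent promoters, 59.2% at H3K4me3-only promoters, 54.1% at H3K27me3-only promoters and 55.1% over all promoters. The median ratio of observed to expected CpG was 0.719, 0.746, 0.434 and 0.560 in the same order. A promoter was called CpG-rich with a GC content of at least 55% and an observed to expected ratio of at least 0.6, which applied to 1018 of 1455 bivalent promoters (70.0%), 63.9% of H3K4me3-only, 28.1% of H3K27me3-only and 39.8% of all promoters. The share of CpG-rich promoters among bivalent promoters was thus nearer to that of H3K4me3-only than of H3K27me3-only promoters.

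Of 5 groups of gene families, developmental transcription factors held the highest share of bivalent promoters. In 11 lists of developmental transcription factors, 121 of 351 promoters (34.5%, interval 29.7 to 39.6) were bivalent and a further 123 had H3K27me3 only. Signalling families followed with 46 of 159 (28.9%, 22.4 to 36.4), then membrane protein families with 65 of 633 (10.3%, 8.14 to 12.9). Immune families had 14 of 227 (6.17%, 3.71 to 10.1) and promoters in none of the lists 1181 of 17445 (6.77%). None of 76 ribosomal protein promoters, which were marked by H3K4me3 only in 73 cases, and none of 1087 olfactory receptor promoters, of which 946 had neither mark, was bivalent. A count of 0 allows a share of up to 3.95% and 0.276% there.

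**Figure D1:**
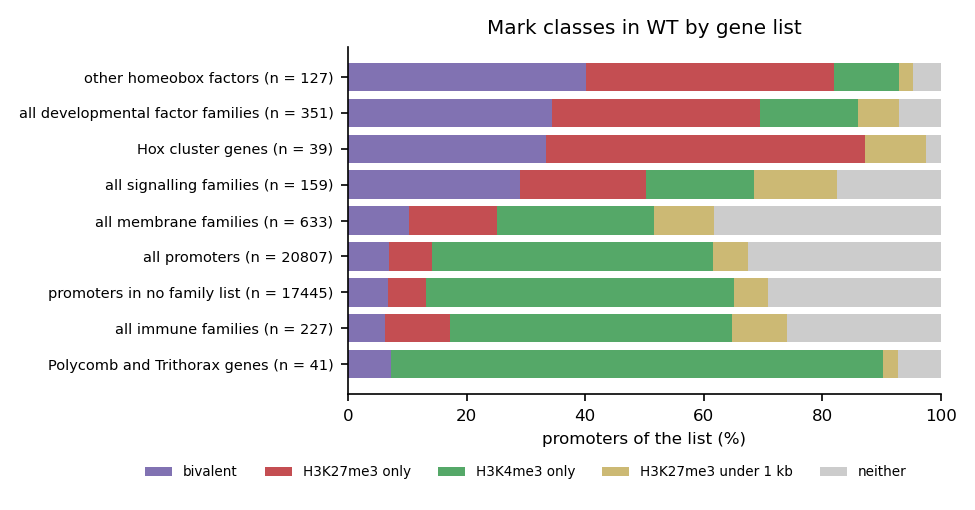
Share of promoters in each mark class in WT (x axis, percent of the list) for 9 gene lists (y axis, number of promoters in parentheses), with colours for bivalent, H3K27me3 only, H3K4me3 only, H3K27me3 under 1 kb with or without H3K4me3, and neither mark. Bivalent promoters reach 40.2% of the homeobox factors outside the Hox clusters and 34.5% of all developmental factors, against 6.99% of all promoters.

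Among homeobox factors outside the Hox clusters, 51 of 127 (40.2%) were bivalent, including the distal-less factors Dlx1, Dlx2, Dlx3 and Dlx4, the midbrain factors En1 and En2, the motor neuron factor Isl2 and the LIM factors Lhx1, Lhx2, Lhx4, Lhx6, Lhx8 and Lhx9. Forkhead factors had 13 of 41, with the endoderm factor Foxa1. Tissue-specific bHLH factors had 12 of 48, with the blood and endothelial factor Tal1 and the neural factors Neurog2, Neurog3 and Neurod2. Zic, Gli and Glis factors had 5 of 10, T-box factors 5 of 16, Sox factors 5 of 18, with the cartilage factor Sox9, and Klf and Sp factors 8 of 25. Pax factors were mostly marked by H3K27me3 alone, with 7 such promoters and 2 bivalent ones of 9.

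Among signalling families, 8 of 19 Wnt ligands (Wnt1, Wnt2b, Wnt3, Wnt5b, Wnt9a, Wnt9b, Wnt10b and Wnt11) and 4 of 10 of their Frizzled receptors (Fzd1, Fzd2, Fzd3 and Fzd6) were bivalent. The hedgehog pathway had 4 of 8, among them the ligand Dhh, the decoy receptor Hhip and the signal transducer Smo. Ephrins and Eph receptors had 6 of 21 and axon guidance genes of the semaphorin, plexin, netrin and Slit/Robo families 14 of 44. Fgf ligands had 4 of 20 and Bmp, Gdf and inhibin ligands 4 of 28. Of the membrane proteins, voltage-gated potassium channels had 16 of 91, sodium and calcium channels 7 of 39 and solute carriers 31 of 372, the last close to the 6.99% of all promoters.

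The 13 bivalent promoters among 39 Hox genes, which specify position along the body axis, lay in all 4 clusters and were most numerous in the Hoxa cluster with 8. A further 21 Hox promoters had H3K27me3 only, and none had H3K4me3 only. The H3K4me3 fold in WT was 17.5 at Hoxa4, 16.1 at Hoxa7 and 12.5 at Hoxa3, and lay between 3.59 (Hoxd3) and 7.62 (Hoxb7) at Hoxa6, Hoxa9, Hoxa11, Hoxa13, Hoxb7, Hoxc9, Hoxd3, Hoxd8 and Hoxd13. Hoxa7 had 17.2, 11.4 and 9.22 in WTLPS, KO and KOLPS. The H3K27me3 fold of the 13 genes lay between 3.25 (Hoxa4) and 4.68 (Hoxa9) in WT. Of the 13, 11 had an H3K27me3 peak after LPS, and in CTCF-KO cells 13 in KO and 6 in KOLPS, the last being Hoxa6, Hoxa7, Hoxa9, Hoxa11, Hoxc9 and Hoxd3. H3K4me3 was called at 12 in KO and 10 in KOLPS, and not at Hoxd13 in either. A CTCF peak lay at Hoxa9 in WT (fold 3.80) and at none of the 13 in the other conditions. Genes of a cluster share peaks and are not independent.

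The marks themselves were arranged around the start site with H3K4me3 in the centre and H3K27me3 on the flanks. The start site lay inside the H3K4me3 peak at 75.3% of bivalent promoters and inside the H3K27me3 peak at 20.6% (300), and inside both at 13.5% (197). H3K27me3 covered most members 1.4 kb upstream, where 81.5% were covered, against 20.8% at the start site when peaks of any width were counted. H3K4me3 covered most members 200 bp downstream, at 77.5%. Within the window, H3K27me3 lay on both sides of the start site at 645 promoters, only upstream at 520 and only downstream at 290. The peaks of both marks shared at least 1 bp at 1137 promoters (78.1%) and none at 318. The 2001-bp windows held a median of 1359 bp of H3K4me3 and 745 bp of H3K27me3.

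**Figure D2:**
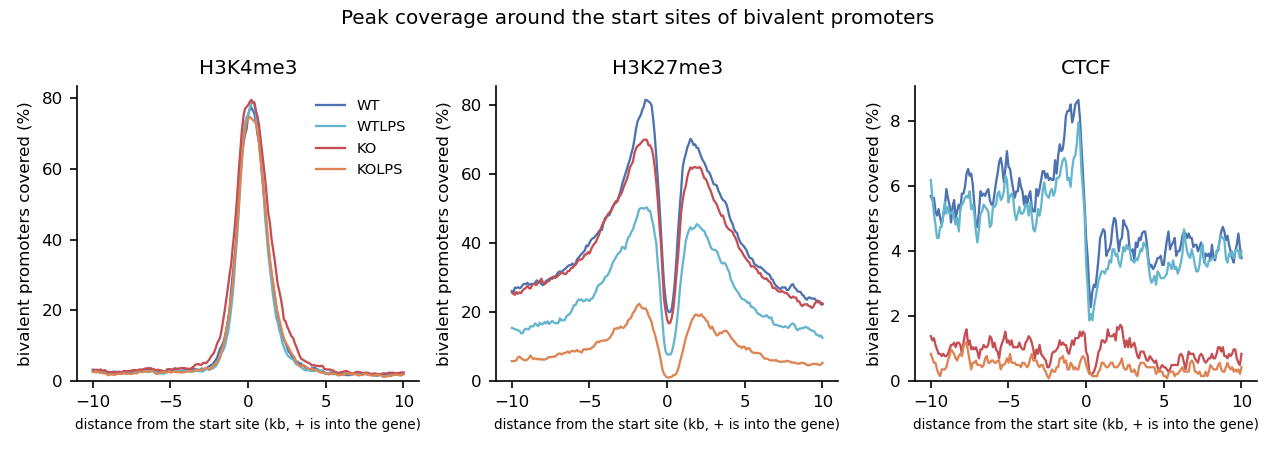
Share of the 1455 bivalent promoters covered by an H3K4me3, H3K27me3 or CTCF peak (y axes, percent, with a different scale in each panel) by distance from the start site (x axes, kb, positive into the gene) in WT, WTLPS, KO and KOLPS, in steps of 100 bp. H3K27me3 dips at the start site in every condition, and its highest share is 81.5% (WT), 50.3% (WTLPS), 70.0% (KO) and 22.3% (KOLPS).

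H3K4me3 was weaker at bivalent than at H3K4me3-only promoters, with a median fold of 8.52 and a median peak width of 1545 bp, against 30.5 and 3142 bp. Within the WT list of H3K4me3 peaks, the median percentile of the fold was 47.4 and 80.5. The widest H3K27me3 peaks at bivalent promoters lay at Calu (58452 bp, fold 4.03), Epn2 (55349 bp, 4.15), Hoxc9 (54886 bp, 4.02), Gpx7 (39429 bp, 4.05), Yap1 (34769 bp, 3.91), Sim1 (32607 bp, 4.12), Zic5 (29215 bp, 4.23) and Rnf220 (27764 bp, 3.85), when genes within 100 kb were counted once. Yap1 encodes the co-activator of the Hippo pathway and Sim1 a bHLH-PAS factor of the hypothalamus. At Calu the H3K27me3 peak ended 730 bp upstream of the start site and the gene had a high H3K4me3 fold of 34.5, 37.1, 35.4 and 26.3 in WT, WTLPS, KO and KOLPS with H3K27ac in all 4 conditions. Yap1 had an H3K4me3 fold of 5.38 and 6.96 in WT and WTLPS and of 18.2 and 15.5 in KO and KOLPS. Epn2 had 4.93 and 6.96, then 9.54 and 10.3, and an H3K27me3 peak in all 4 conditions. Its widest H3K27me3 peak began 834 bp downstream of the start site, inside the gene.

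The width limit of 1 kb cut through a continuous range. Just inside it were Kdm2a (1000 bp), Klc2 (1003 bp) and Mfap3l (1006 bp), and just outside it, among promoters with H3K4me3, Col14a1 (999 bp), 1700019D03Rik (997 bp) and Stum (993 bp). Kdm2a and Klc2 had a high H3K4me3 fold of 39.0 and 29.1 and the lowest H3K27me3 folds among the 6, 3.06 and 2.83.

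The 2 marks of WT, which are 100% by the rule there, were read in the other conditions. H3K4me3 was called again at 1395 of 1455 members in WTLPS (95.9%, 94.7 to 96.8), 1388 in KO (95.4%, 94.2 to 96.4) and 1357 in KOLPS (93.3%, 91.9 to 94.4). Among all promoters, the shares with H3K4me3 were 56.4%, 56.8%, 56.8% and 56.0% (order WT, WTLPS, KO, KOLPS), and of those with H3K4me3 in WT it was called again in 98.7%, 98.1% and 97.2%. The median fold over members with a peak was 8.52, 10, 10 and 8.93 in WT, WTLPS, KO and KOLPS.

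H3K27me3 was called again at 1093 members in WTLPS (75.1%, 72.8 to 77.3), 1253 in KO (86.1%, 84.2 to 87.8) and 419 in KOLPS (28.8%, 26.5 to 31.2). Over all promoters the H3K27me3 shares were 20.0%, 14.0%, 20.4% and 5.69%, with WT first. Of all promoters with an H3K27me3 peak of at least 1 kb in WT, 74.4% had an H3K27me3 peak in WTLPS, 88.3% in KO and 32.9% in KOLPS, so that members lay near this background. H3K27me3-only promoters had 73.8%, 90.5% and 36.9%. The KOLPS list had the fewest peaks and the highest lowest −log10 p (3.47), at a coverage of 0.980 recovered from 16.3% of the peaks tried. When that minimum was applied to all 4 lists, 1324 promoters were bivalent in WT and 30.6% of them had H3K27me3 in KOLPS, 81.0% in KO and 77.3% in WTLPS. The part of coverage and of other library differences was not tested.

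H3K27me3 was called at the start site itself at 20.8% of members in WT and 7.56% after LPS, and at 17.7% in KO and 0.893% in KOLPS. Over all promoters this was 4.86%, 1.97%, 5.42% and 0.389% in the same order. Both marks of any width were present in WTLPS at 1039 members (71.4%), in KO at 1188 (81.6%), in KOLPS at 378 (26.0%) and in all 4 conditions at 319. Applied to each condition in turn, the full rule gave 1455 (WT), 836 (WTLPS), 1536 (KO) and 208 (KOLPS) promoters, or 2012 in any condition and 132 in all 4. WT and KO shared 1041, which is 71.5% of WT and 67.8% of KO members. Members defined in WT had H3K27me3 in KO in 86.1% of cases and members defined in KO had it in WT in 88.8%, so that the members of either list were read at a lower share in the other. For KOLPS, 28.8% of members defined in WT and 31.0% of those defined in KO had H3K27me3, whereas members defined in KOLPS had it in WT in 96.6%.

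Of members with the start site inside the H3K27me3 peak, 96.7% had H3K27me3 in KO and 43.0% in KOLPS, against 80.0% and 21.5% of members with the start site in H3K4me3 only. Their median H3K27me3 peak width was 5178 bp against 2975 bp. Of the developmental factors, 118 of 121 (97.5%) had H3K27me3 in KO, 107 (88.4%) in WTLPS and 46 (38.0%) in KOLPS, and of members in none of the lists 84.4%, 73.7% and 28.3%. Signalling genes had 45 of 46 in KO and 9 (19.6%) in KOLPS, and none of the 8 bivalent Wnt ligands had H3K27me3 in KOLPS. The median H3K27me3 width was 6522 bp at developmental factors and 2748 bp at signalling genes.

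In 65 members (4.47%, 3.52 to 5.65) H3K27me3 was called in WT and WTLPS and in neither KO nor KOLPS. This was near the 3.77% of all promoters with H3K27me3 of at least 1 kb in WT and the 3.09% (2.33 to 4.10) of H3K27me3-only promoters. The widest peaks in WT were those of Calu, Lynx1, Nkapl, Ptk2, Rhpn2 and Slc1a2. The H3K27me3 fold of Ptk2, which encodes focal adhesion kinase, was 3.88 in WT and 4.00 in WTLPS. Slc1a2, a glutamate transporter, had 3.95 and 4.16, and its H3K4me3 fold was 8.07 and 10.7 in WT and WTLPS and 14.5 and 13.6 in KO and KOLPS. In 49 members (3.37%, 2.56 to 4.42) H3K4me3 was called in neither KO nor KOLPS, against 1.44% of all promoters with H3K4me3 in WT and 1.09% of H3K4me3-only promoters. Promoters with H3K4me3 and a narrower H3K27me3 peak had 3.15% (1.85 to 5.31), near the share of members. The highest H3K4me3 folds of the 49 in WT were those of Scnn1g, a subunit of the epithelial sodium channel, Cpe, a carboxypeptidase of hormone processing, Steap1 and Fam241b, at 7.62, 6.72, 6.27 and 6.15. Scnn1g, Steap1 and Fam241b had CTCF in WT and WTLPS only. H3K27me3 was called at all 4 genes in KO.

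At bivalent promoters CTCF had a share close to that of all promoters in WT and a lower one in KO. A CTCF peak lay at 280 members in WT (19.2%, 17.3 to 21.3) and 232 after LPS (15.9%, 14.2 to 17.9). In CTCF-KO cells the numbers were 69 in KO (4.74%, 3.76 to 5.96) and 34 in KOLPS (2.34%, 1.68 to 3.25). All promoters had 19.1%, 17.2%, 11.3% and 5.58%, and H3K4me3-only promoters 29.4%, 26.5%, 21.0% and 10.1%. H3K27me3-only promoters had lower shares than members, with 9.48%, 8.81%, 1.61% and 1.41% in WT, WTLPS, KO and KOLPS. In 1147 members (78.8%) no CTCF peak was called in any condition, against 75.6% of all promoters. CTCF was more often upstream of the start site, covering at most 8.66% of members in WT 500 bp upstream and 4.54% at 1 kb downstream.

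**Figure D3:**
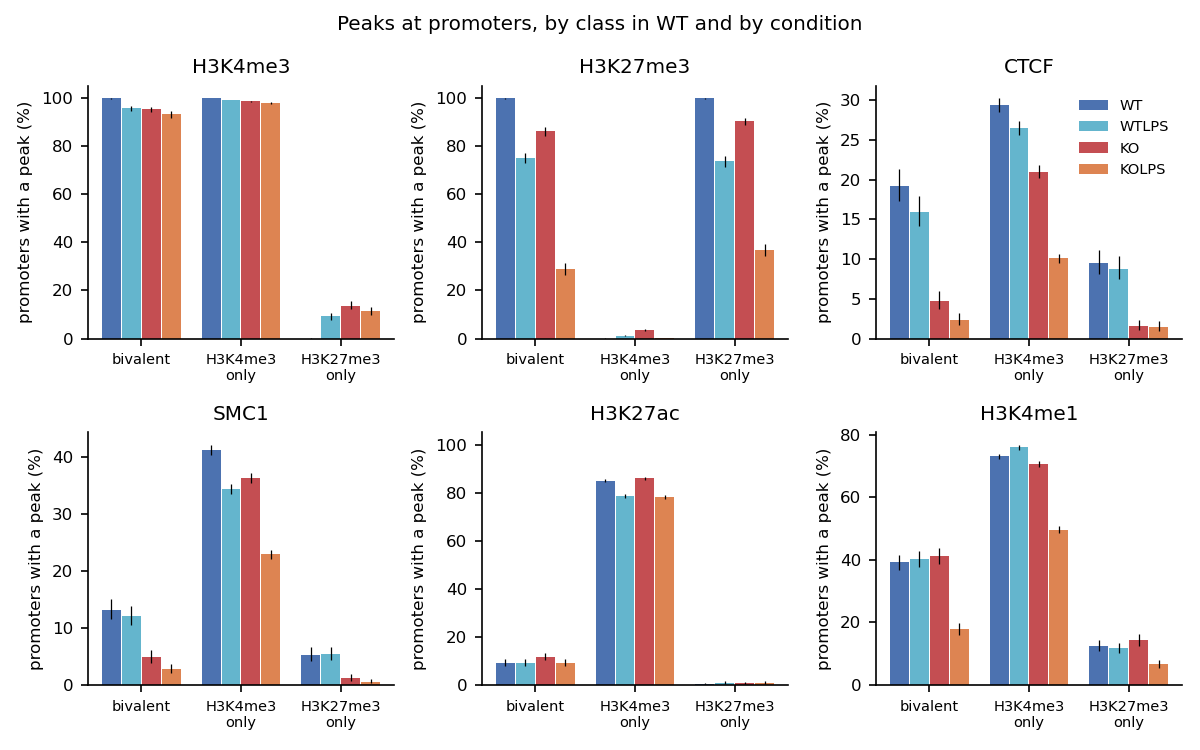
Share of promoters with a peak within 1 kb of the start site (y axes, percent, different scales) for 6 antibodies, in bivalent, H3K4me3-only and H3K27me3-only promoters as defined in WT (x axes), with a bar for each of WT, WTLPS, KO and KOLPS and 95% Wilson intervals. In bivalent promoters, CTCF goes from 19.2% in WT to 4.74% in KO and SMC1 from 13.1% to 4.88%, while H3K27ac stays between 9.14% and 11.8%.

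Of the 280 members with CTCF in WT, 217 had it in WTLPS (77.5%, 72.3 to 82.0) and 55 in KO (19.6%, 15.4 to 24.7). Over all promoters with CTCF in WT these shares were 83.2% and 37.6%. H3K27me3-only promoters, also with a low share in KO, had 85.1% and 17.0% (11.7 to 24.1). From WTLPS to KOLPS, 33 of 232 members kept CTCF (14.2%, 10.3 to 19.3), against 25.4% of all promoters. CTCF peaks at members had a median fold of 8.65 in WT, at the percentile 59.3 of the WT list. To compare sites of like strength, promoters were divided into 4 bins by the rank of their strongest CTCF peak in the WT list. From the weakest to the strongest bin, 8.89%, 1.75%, 13.1% and 46.8% of members kept CTCF in KO, against 23.1%, 21.4%, 32.9% and 77.8% of H3K4me3-only promoters. The intervals of these 2 classes, which cover counting error only, did not overlap in bins 2, 3 and 4, with 57, 99 and 79 members. Promoters are not replicates of a condition, and the difference between the classes was not tested. H3K27me3-only promoters had 0%, 0%, 5.71% and 40.7%, of 16, 36, 35 and 54 promoters, with intervals up to 19.4% and 9.64% for both counts of 0. Promoters without CTCF in WT also differed in CTCF calls in KO. These were at 14 of 1175 such members (1.19%) and at 824 of 6956 such H3K4me3-only promoters (11.8%). The part of this rate of new calls in the kept shares was not tested.

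**Figure D4:**
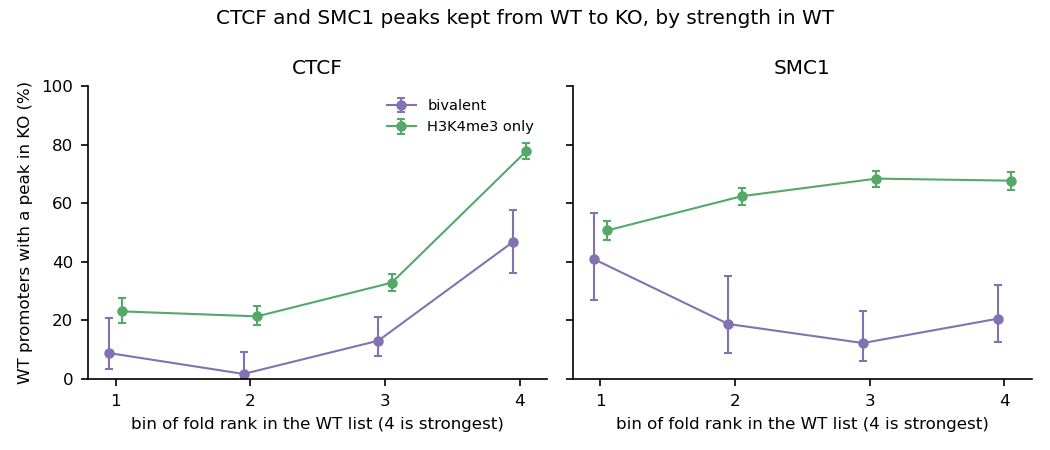
Share of promoters with a CTCF (left) or SMC1 (right) peak in WT that also had one in KO (y axis, percent), in 4 bins of the fold rank in the WT list (x axis, bin 4 is strongest), for bivalent and H3K4me3-only promoters, with 95% Wilson intervals. In bin 4, 46.8% of bivalent and 77.8% of H3K4me3-only promoters keep CTCF, and 20.6% and 67.7% keep SMC1.

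CTCF was present in WT and WTLPS and not called in KO and KOLPS at 159 of the 280 members with CTCF in WT (56.8%, 50.9 to 62.5), against 46.9% of all promoters with CTCF in WT and 67.4% of H3K27me3-only promoters. The 6 strongest in WT were Elovl4, Ptprf, Slc2a13, Ptger3, Ybx2 and Col12a1, with folds of 38.2, 27, 25.7, 25.3, 24.3 and 21.1, and of 37.5, 25.2, 19.9, 23.2, 16.3 and 16.1 in WTLPS. Elovl4 encodes a fatty acid elongase (start site 83806252 on chromosome 9), Ptprf a receptor tyrosine phosphatase and Ptger3 a prostaglandin E receptor. At Elovl4 the SMC1 fold was 11.6 in WT and 14.5 in WTLPS, with no SMC1 peak in KO or KOLPS, while H3K27me3 had 4.54, 4.66, 4.25 and 4.10 and H3K4me3 7.62, 8.82, 5.91 and 5.88 in WT, WTLPS, KO and KOLPS. Ptger3 also had both marks in all 4 conditions, and its strongest H3K27me3 peak had a fold of 5.86, 4.06, 3.20 and 5.15. Its widest H3K27me3 peak in WT (1236 bp) had a fold of 3.22. Ptprf, which had no SMC1 peak, had both marks in all 4 as well.

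CTCF was called in all 4 conditions at 30 of the 280 (10.7%, 7.61 to 14.9), against 20.9% of all promoters with CTCF in WT. Those with the highest fold in KO were Pdgfra, Lmtk2, Ess2 and Rab32. Pdgfra, a growth factor receptor of mesenchymal cells, had a CTCF fold of 24.1, 18.1, 18.7 and 13.1 in WT, WTLPS, KO and KOLPS, and an SMC1 fold of 12.6 and 10.8 in WT and WTLPS with no SMC1 peak in the other 2 lists. Of its window, the CTCF peak covered 1413 bp in WT but only 2 bp in KO and 75 bp in KOLPS, and the SMC1 peak 12 bp in WT, so that its calls there lay at the edge of the window. Lmtk2 had a CTCF fold of 28.5, 23.6, 13.2 and 5.50. Rab32, a small GTPase of lysosome-related organelles, had 24.3, 20.1, 11.9 and 9.42 and SMC1 in all 4 conditions. H3K27me3 was called at Pdgfra in WT and KO (3.97 and 3.56), and at Lmtk2, Ess2 and Rab32 in WT alone.

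The core of the CTCF consensus was searched within 50 bp of CTCF summits on both strands. The exact core consensus was at 17 of 298 CTCF peaks of members in WT (5.70%, 3.59 to 8.94) and at 4.26% of those of H3K4me3-only promoters. Within the whole window it occurred at 24 members (1.65%), against 1.70% of all promoters. None of the 6 strongest genes named above held it at the summit. Sites from the 159 members that held the consensus are therefore shown for 4 genes, chosen after the values were seen as the strongest within 1 kb of the start site, in the direction of the motif (GRCm38, consensus in capitals). They lay in the promoters of Nes (chromosome 3, consensus at 87970264 to 87970275, plus strand), Mafa (chromosome 15, 75748536 to 75748547, minus strand), Mtus2 (chromosome 5, 147957228 to 147957239, plus strand) and Carmil1 (chromosome 13, 24281358 to 24281369, minus strand), at -824, -313, -87 and -568 bp from the start site.
Nes: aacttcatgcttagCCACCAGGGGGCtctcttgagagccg
Mafa: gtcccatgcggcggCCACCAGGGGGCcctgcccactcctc
Mtus2: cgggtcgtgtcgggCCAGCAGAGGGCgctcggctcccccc
Carmil1: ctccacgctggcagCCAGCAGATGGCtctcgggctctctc
The CTCF folds in WT and WTLPS were 17.2 and 12.3 at Nes, 12.9 and 8.60 at Mafa, 11.4 and 6.84 at Mtus2 and 8.02 and 5.74 at Carmil1. Nes encodes the intermediate filament nestin of neural stem cells and Mafa a transcription factor of insulin-producing cells. SMC1 was called in WT at Nes (17.2), Mafa (12.3) and Carmil1 (6.25) and not at Mtus2, and at none of the 4 in KO or KOLPS.

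SMC1 had a lower share at bivalent promoters than at all promoters in each condition, and a higher one than at H3K27me3-only promoters. It was called at 191 members in WT (13.1%, 11.5 to 15.0), 175 after LPS (12%, 10.5 to 13.8), 71 in KO (4.88%, 3.89 to 6.11) and 40 in KOLPS (2.75%, 2.03 to 3.72), against 23.1%, 19.7%, 18.5% and 11.7% of all promoters and 41.1%, 34.3%, 36.3% and 22.9% of H3K4me3-only promoters. H3K27me3-only promoters had SMC1 in 5.31%, 5.38%, 1.21% and 0.538% of cases in WT, WTLPS, KO and KOLPS. Promoters with neither mark had 5.28%, 4.92%, 2.05% and 1.24% in this order. At members, 153 of the 191 promoters with SMC1 in WT also had CTCF (80.1%). This was 79.7% at H3K27me3-only, 50.6% at H3K4me3-only and 54.3% at all promoters with SMC1. In KO, 16 of 71 members with SMC1 had CTCF (22.5%), near the 23.7% of all promoters.

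Of the members with SMC1 in WT, 42 of 191 had it in KO (22.0%, 16.7 to 28.4), against 56.9% of all promoters, 62.6% of H3K4me3-only promoters and 17.7% (10.9 to 27.6) of H3K27me3-only promoters. From WTLPS to KOLPS it was 28 of 175 (16.0%, 11.3 to 22.2), against 41.5% of all promoters. In the 4 bins of SMC1 strength from weakest to strongest, 41.0%, 18.8%, 12.3% and 20.6% of members kept SMC1 in KO, against 50.7%, 62.4%, 68.4% and 67.7% of H3K4me3-only promoters. H3K27me3-only promoters had 33.3%, 0% (up to 29.9%), 22.7% and 13.9%, of 12, 9, 22 and 36 promoters. Of promoters without SMC1 in WT, 2.29% of members and 17.8% of H3K4me3-only promoters had SMC1 in KO. The part of this rate of new calls in the kept shares was not tested. Members and H3K4me3-only promoters also differed in H3K27ac, as given next, and the part of this was not tested.

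H3K27ac, a mark of active promoters and enhancers, had a lower share at bivalent promoters than at all promoters. It was called at 135 members in WT (9.28%, 7.89 to 10.9), 134 after LPS (9.21%, 7.83 to 10.8), 171 in KO (11.8%, 10.2 to 13.5) and 133 in KOLPS (9.14%, 7.77 to 10.7), against 43.0%, 39.8%, 43.5% and 39.4% of all promoters and 85.0% of H3K4me3-only promoters in WT. At H3K27me3-only promoters the share was lower than at members, with 0.471%, 1.01%, 0.807% and 1.01% in WT, WTLPS, KO and KOLPS. Promoters with neither mark had 4.63%, 4.29%, 3.89% and 3.82% in this order. The coverage of the H3K27ac lists was 1.17, 1.20, 0.748 and 0.801 in WT, WTLPS, KO and KOLPS. No H3K27ac peak was called in any condition at 1212 members (83.3%), against 51.8% of all promoters and 97.7% of H3K27me3-only promoters. In WT it was called at 16.0% of members where H3K27me3 lay only upstream of the start site, at 12.8% where it lay only downstream and at 2.33% where it lay on both sides. Among bivalent developmental factors, 3 of 121 had H3K27ac in WT (2.48%).

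A similar number of members had H3K27ac in WT and WTLPS, but not the same members. A peak was called in WTLPS and not in WT at 45 members, in WT and not in WTLPS at 46 and in both at 89. The 45 were 3.41% of the members without H3K27ac in WT, against 3.80% of all such promoters, and from KO to KOLPS it was 2.26% of members against 2.87%. The 89 were 65.9% (57.6 to 73.4) of the members with H3K27ac in WT, a lower share than the 87.5% of all such promoters. H3K4me3-only promoters kept 89.3%, those with H3K4me3 and narrower H3K27me3 68.8% and those with neither mark 57.3%. From KO to KOLPS, 60.8% of members with H3K27ac in KO kept it, against 86.9% of all such promoters. The highest H3K27ac folds of the 45 in WTLPS were those of Vcan (9.56), Cxcl1 (9.10), Dcbld2 (8.65), Gm266 (7.28), Stk39 (6.37) and Tal1 (6.37), of which the last value was shared by Amdhd1, Tpbg and Ttc8. H3K27me3 was called in WTLPS at Tal1 (3.81) and at none of the other 5 named first.

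Cxcl1, which encodes a neutrophil-attracting chemokine (chromosome 5, gene 90891241 to 90893115, start site 90891243), had both marks in WT with an H3K4me3 fold of 5.57 and an H3K27me3 fold of 3.64. After LPS its H3K4me3 fold was 10.2 in WTLPS and 10.8 in KOLPS, no H3K27me3 peak was called, and H3K27ac had 9.10 and 7.58. In KO, without LPS, it had 7.70 for H3K4me3, no H3K27me3 peak and 3.43 for H3K27ac. Vcan, which encodes the matrix proteoglycan versican, had an H3K4me3 fold of 29.6, 33.0, 29.5 and 23.0 in WT, WTLPS, KO and KOLPS. Its H3K27ac was absent from WT and had a fold of 9.56, 4.58 and 7.22 in WTLPS, KO and KOLPS, and its H3K27me3 was called only in WT.

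p65, which enters the nucleus after LPS, was called at no member in WT and KO, which allows a share of up to 0.206% in each, at 7 in WTLPS (0.481%) and at 1 in KOLPS. Of all promoters 0.322%, 1.86%, 0.231% and 1.57% had p65 in WT, WTLPS, KO and KOLPS. The 7 were Rab32, Tpbg, Tmem266, Adra1a, Wnt1, Lpar3 and Slfn5, with a p65 fold of 11.9, 9.70, 9.16, 7.01, 7.01, 4.85 and 4.85. Rab32 also had p65 in KOLPS, with a fold of 10.5. Tpbg, a membrane glycoprotein that inhibits Wnt signalling, had H3K27ac in WTLPS (6.37) and KOLPS (5.55) and in neither unstimulated list. Tmem266 had H3K27ac in WTLPS (5.01), KO (5.15) and KOLPS (8.33) and H3K27me3 in WT alone. STAT5, which acts downstream of GM-CSF, was called at 15 members in WT (1.03%) and 12 in KO (0.825%), against 2.47% and 2.08% of all promoters.

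H3K4me1, which flanks active promoters and marks enhancers, was called at 570 members in WT (39.2%, 36.7 to 41.7), 585 after LPS (40.2%), 601 in KO (41.3%) and 260 in KOLPS (17.9%, 16.0 to 19.9). All promoters had 44.7%, 46.2%, 43.6% and 29.3%. In WT this order turned with the window, since H3K4me1 was at 24.9% of members against 20.3% of all promoters within 500 bp, at 61.7% against 59.0% within 2.5 kb and at 19.3% against 7.36% over the start site itself, with members chosen anew by each window. The KOLPS list of H3K4me1 had a lower coverage of 2.95 against 3.60 to 4.08 and a higher lowest −log10 p of 2.60 against 2.24 to 2.33, and the part of this was not tested. These coverages were recovered from only 4.68% to 6.19% of the peaks tried in each list and are uncertain. Peak names in the H3K4me1 lists carry another antibody supplier than the labels, so that the supplier is uncertain.

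Among the 227 promoters of immune families, the 14 bivalent ones were those of the interleukins Il12a and Il17d, the receptors Il17rb, Il17rd and Il20ra, the chemokines Cxcl1, Cxcl12 and Cxcl14, the TNF family members Cd70, Tnfrsf12a and Tnfrsf19, and the MHC class I genes H2-Q6, H2-Q7 and H2-Q10. None of 9 Toll-like receptors, 16 interferon regulatory factors and STATs or 22 chemokine receptors was bivalent, which allows shares of up to 33.3%, 18.8% and 13.6%. Il12a, which encodes the p35 subunit of IL-12, had an H3K4me3 fold of 11.7, 15.8, 8.63 and 9.87 in WT, WTLPS, KO and KOLPS, an H3K27me3 fold of 3.42, 3.26 and 3.29 in the first 3, and no H3K27ac. Cd70, a costimulatory ligand of T cells, had an H3K4me3 fold of 3.93 in WT and 6.75, 6.17 and 7.82 in WTLPS, KO and KOLPS, and H3K27ac only with LPS, at 4.85 and 4.36. S100a8, one of the neutrophil markers, had H3K27ac only in KO (11.6) and KOLPS (8.33), while its H3K4me3 fold was 6.27 and 5.63 in WT and WTLPS and 3.46 and 3.76 in KO and KOLPS. H2-Q6 and H2-Q7 are closely related copies, so that reads could be shared between them and their peaks are uncertain.

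Of 41 Polycomb and Trithorax genes, 3 were bivalent (7.32%, 2.52 to 19.4, near the 6.99% of all promoters), namely Bmi1, Cbx2 and Cbx8, all subunits of Polycomb repressive complex 1, and 34 had H3K4me3 only. The H3K4me3 fold of Bmi1 was 30.9, 24.1, 32.3 and 28.2 in WT, WTLPS, KO and KOLPS, and its H3K27me3 fold was 3.97 and 3.99 in WT and WTLPS with no peak in KO and KOLPS. Cbx2 had H3K27me3 in all 4 conditions (3.63, 3.77, 3.71 and 3.62) and CTCF only in WT (7.75) and WTLPS (7.39). Cbx8, its neighbour on chromosome 11, had H3K27me3 in WT, WTLPS and KO (3.69, 3.53 and 3.72). H3K27ac was called at Bmi1 in WT, KO and KOLPS, at Cbx2 in WT and WTLPS and at Cbx8 in KO alone. The widest H3K27me3 peak in WT did not cover the start site of any of these genes. Its nearest edge lay 921 bp downstream at Bmi1, 694 bp upstream at Cbx2 and 639 bp upstream at Cbx8. The catalytic subunit Ezh2 and its partners Eed and Suz12 had H3K4me3 and no H3K27me3 in all 4 conditions.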

How the data were processed

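Chromatin immunoprecipitation followed by tagmentation and sequencing was performed in CTCF-WT and CTCF-KO BMDCs. The authors deposited 1 peak list per antibody and condition on mm10 (GRCm38), called with MACS2. The labels name BWA 0.7.12, Picard 1.77 and MACS2 2.1.2. Whether a list pools replicates is not given in the labels. Per the file headers and layout, the deposited columns used were the peak position, the fold enrichment (a ratio of pileup to local background) and the −log10 p-value and −log10 q-value, and the H3K27me3 and H3K4me1 lists were broad, with values averaged over regions. Inputs had no list and were not analysed here.

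Start sites came from GENCODE on GRCm38 (19 autosomes, the transcript with the longest summed exons), and an overlap of 1 bp counted. The members and gene lists were chosen with earlier results of these data known, and the homeobox pattern was narrowed after its symbols were seen. Named genes were the extremes of fixed criteria, namely H3K27me3 width (8), CTCF without (6) or with (4) peaks in KO and KOLPS, H3K27ac in WTLPS without WT (6), p65 in WTLPS, missing H3K27me3 (6) or H3K4me3 (4) in KO and KOLPS, the width limit (3 on either side) and all members of the marker, immune and Polycomb lists. The Hox genes and the sequences of Zic5 and Osr2, which had wide but not the widest peaks over a start site, were added later. Coverage was recovered from the fold and −log10 p of peaks that both fitted 1 whole pileup within 0.002. Such peaks were 13.1% to 17.3% of those tried in the H3K27me3 lists, 4.68% to 6.19% in the H3K4me1 lists and nearly all in the others. Shares carry 95% Wilson intervals, and a count of 0 was read as a limit of 3 counts. With 1 list per antibody and condition no test was made. The counting was tested on simulated lists. Alternatives changed the window, width, fold, p, transcript choice and chromosomes. Python 3.11.15, numpy 2.4.6, pandas 2.3.3, scipy 1.17.1 and matplotlib 3.10.9 were used. Results for some genes are not reported here.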

Additional observations from a re-analysis of the deposited data

Results flagged for a closer look

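In 3 comparisons the share of bivalent promoters with a peak differed in sign under the same contrast, and none of these differences was tested, since each condition had 1 list. For H3K27ac, the share in CTCF-KO minus that in CTCF-WT was 2.47 percentage points without LPS and -0.07 with LPS. The last is 134 against 133 promoters, a difference of 1 promoter inside both intervals, and over all promoters H3K27ac was at 43.0% and 43.5% in WT and KO and at 39.8% and 39.4% in WTLPS and KOLPS. For H3K4me1, the share with LPS minus that without was 1.03 percentage points in CTCF-WT and -23.44 in CTCF-KO. For the same mark, CTCF-KO minus CTCF-WT was 2.13 percentage points without LPS and -22.34 with LPS. The KOLPS list of H3K4me1 had the lowest coverage and the highest lowest −log10 p of the 4 H3K4me1 lists, and their part was not tested. The coverage of that list was recovered from only 6.19% of the peaks tried and is uncertain.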

How the results depend on the processing

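No paired analysis was possible because each antibody and condition has 1 list. Leading values are the number of bivalent promoters, the shares of members with CTCF and SMC1 in WT and KO and H3K27ac in WT, the shares with both marks, and the CTCF consensus. Of 118 of them under the alternatives 54 moved, and of all 759 values 334 did. A share was counted as moved when it left its interval. The number of bivalent promoters has no interval and was counted as moved beyond a fixed ratio. Below, "both marks" is the share of members with both marks of any width in WTLPS, KO and KOLPS. With a window of 500 bp, 831 promoters were bivalent, and CTCF was at 11.9% in WT and 1.81% in KO, SMC1 at 6.62% and 2.05%, H3K27ac in WT at 3.73% and both marks at 50.2%, 64% and 10.7%. With 2.5 kb, CTCF was at 34.1% and 14.7%, SMC1 at 25.8% and 11.5%, H3K27ac at 20.3% and both marks at 85.1%, 88.8% and 52.5%. With H3K27me3 of any width, 1868 were bivalent, CTCF in KO was 6.16%, SMC1 in WT 15.2%, H3K27ac 12.4% and both marks 63.6%, 76.1% and 22.1%. With at least 2 kb, CTCF in WT was 16.9%, SMC1 11.4% and both marks 76.3%, 85.0% and 29.2%. With folds at or above each list's median, 560 were bivalent, CTCF was 12.7% and 2.86%, SMC1 9.46% and 3.57%, H3K27ac 14.6% and both marks 47.9%, 67.0% and 10%. With a common lowest p, both marks in KO were 76.7%. With both marks over the start site, 197 were bivalent, CTCF was 5.08% and 1.52%, SMC1 2.54% and 1.52%, H3K27ac 1.52% and both marks 12.7%, 33.0% and 2.03%. Alternatives added after seeing the data were members without H3K27ac in WT (CTCF in KO 3.64%, SMC1 11.2% and 2.35%, both marks 74.5% in WTLPS and 84.7% in KO) and members whose peaks share a base (both marks in WTLPS 74.4%). Allowing 1 mismatch, 23.2% of summits held the CTCF consensus. The cause of these movements was not tested. Over 11 settings, members had a lower share than all promoters for SMC1, H3K27ac and p65 in all 4 conditions and for CTCF in KO in 11 settings, and for CTCF in WT, WTLPS and KOLPS in 6, 9 and 10 and for STAT5 in 10. For H3K4me1 they were lower in 8 settings in WT, WTLPS and KO and in 10 in KOLPS, and higher in the rest. Choosing the transcript otherwise, adding sex chromosomes, dropping close start sites or dropping the widest peaks moved none of the leading values, but of 64 values in all the 2 other transcript choices moved 9 and 8 and the sex chromosomes 22.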
